A study of Mus musculus with 26 samples.

Results

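The 10 genes described here encode the trunk of the insulin signalling pathway: Insr, Irs1, Irs2, Pik3r1, Pik3ca, Akt1, Akt2, Foxo1, Tbc1d4 and Grb10. They were taken from a list of names, which was chosen with earlier results of these data known. They are 10 of the 50686 genes listed in the count table of mouse brown adipose tissue (BAT), and all 10 were among the 17286 genes abundant enough to be tested. After 6 h at 5 °C, 4 of the 10 mRNAs rose in control mice (Insr, Irs2, Akt1 and Foxo1), 3 fell (Pik3r1, Akt2 and Tbc1d4), and 3 did not pass the test (Irs1, Pik3ca and Grb10). The same 4 rose and the same 3 fell in the mice labelled Afadin KO. For none of the 10 did the label pass the test at either temperature.

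Insulin binds the insulin receptor, a tyrosine kinase at the cell surface, which phosphorylates the docking proteins IRS1 and IRS2. These recruit PI 3-kinase, an enzyme of a regulatory and a catalytic subunit, whose lipid product brings the kinases AKT1 and AKT2 to the membrane. AKT then keeps the transcription factor FOXO1 out of the nucleus and inhibits TBC1D4 (AS160), which otherwise holds the glucose transporter GLUT4 inside the cell. GRB10 is an adaptor that binds the receptor and restrains it. In brown fat the pathway drives glucose uptake and lipid synthesis, and it acts beside the adrenergic signal that cold sends to the tissue.

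The tissue was labelled as supraclavicular BAT from C57BL/6J mice, and all 26 were males of 12 to 16 weeks by the study's methods. The mice spent 2 weeks at thermoneutrality, given as 30 °C in the labels and as 29 °C in the methods, and 12 of them then spent 6 h at 5 °C. Control mice numbered 7 at 30 °C and 5 at 5 °C, and mice labelled Afadin KO numbered 7 at each temperature. The knockout was made with Adiponectin-Cre and floxed Mllt4 (Afdn) alleles. This Cre is active in adipocytes of white as well as brown fat, and other cells of the tissue keep Afadin. The control mice were littermates labelled WT, and their Cre and floxed alleles are not stated in the sources used here.

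Total counts ran from 12705969 to 25732258 per mouse (median 17237377), of which mitochondrial genes took 14.3 to 40.5%. The median of this share was 37.2% in control mice at 30 °C and 27.6% at 5 °C. In mice labelled Afadin KO it was 28.3% and 28%. Values below are normalised read counts in CPM, scaled by TMM factors, and SE is the standard error of a log2 fold change. Gene coordinates are those of GENCODE M21 on GRCm38 (mm10). Afdn, the targeted gene, ran from 154 to 230.5 CPM in the mice labelled Afadin KO at 30 °C and from 152 to 214 in control mice (log2 fold change -0.012, adjusted p = 0.992). At 5 °C it ran from 53.2 to 65.3 and from 67.8 to 79.2 CPM, without overlap, and the difference was -0.33 (SE 0.088, adjusted p = 0.116). Because the counts of the targeted gene were not lower at 30 °C, these mice are called by their label throughout. The counts cover all exons of Afdn, and which exons the floxed alleles lose is not stated in the sources used here. By immunoblot, the study reported a reduced rise of Afadin protein with cold in BAT of the knockout mice. The study also blotted Afadin protein in BAT of both genotypes at thermoneutrality, in a supplementary figure whose values were not read here. Its protein and RT-qPCR measurements were not compared with these counts. All 6 adipocyte and all 6 brown adipocyte markers were detected in every group, and with cold 2 of the former rose and 2 fell in control mice, and 4 of the latter rose and 1 fell. The summed brown adipocyte markers, Ucp1 among them, were 1728 to 2752 CPM in control mice at 30 °C and 19340 to 21640 at 5 °C. Among cells other than adipocytes, 3 of 6 endothelial markers rose and 3 fell with cold in both genotypes, and the 5 red blood cell markers rose with cold in the mice labelled Afadin KO, while 0 of 5 passed in control mice (edgeR, 0 also unadjusted). Their sum in the mice labelled Afadin KO was 289 to 609 CPM at 30 °C and 517 to 1497 at 5 °C. The neutrophil markers rose in both genotypes (3 and 4 of 4) but summed to at most 55.2 CPM. In control mice 2 of 6 macrophage markers rose and 2 fell, 2 of 5 lymphocyte and 2 of 6 fibroblast markers fell, 2 of 5 smooth muscle markers rose and 3 fell, and 1 of 4 Schwann cell markers fell. In mice labelled Afadin KO, 4 macrophage markers rose and 2 fell, 1 lymphocyte marker fell, and 1 fibroblast marker rose and 1 fell. There 2 smooth muscle markers rose and 3 fell, and 2 Schwann cell markers fell. These counts stand beside 65.0% of all genes that passed for cold in control mice and 68.6% in mice labelled Afadin KO. Skeletal muscle markers varied widely between mice, from 1.073 to 8265 CPM in sum, and 0 of 8 passed the test for cold in either genotype (edgeR, 0 of 8 also at an unadjusted p below 0.05). The part of these cells in the results below was not tested, apart from a fit with the muscle markers as a covariate. In that fit the same 7 genes passed, beside 65.8% of all genes in control mice and 69.3% in mice labelled Afadin KO. In bulk tissue, fewer cells of a type and less RNA per cell cannot be told apart.

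The promoters of 2 pairs of genes are shown, because within each pair the members answered cold differently: Irs2 rose while Irs1 did not pass the test, and Akt1 rose while Akt2 fell. Each line gives the 250 bases before the start of the gene as placed by RefSeq on GRCm38.p6, written 5′ to 3′ on the strand of the gene. They lie at chr1:82291440-82291689 on the minus strand (Irs1), chr8:11008930-11009179 on the minus strand (Irs2), chr12:112674885-112675134 on the minus strand (Akt1) and chr7:27591302-27591551 on the plus strand (Akt2). The first 30 bases after the RefSeq start were found in a GENCODE M21 transcript of Akt1 and Akt2, but in none of Irs1 or Irs2. Neither the Irs1 nor the Irs2 bases adjoin the gene start of GENCODE M21, at chr1:82291416 and chr8:11008458. Positions below are counted from the RefSeq start. Capitals mark matches, on either strand, to the motifs spelled out in the next paragraph.
Irs1: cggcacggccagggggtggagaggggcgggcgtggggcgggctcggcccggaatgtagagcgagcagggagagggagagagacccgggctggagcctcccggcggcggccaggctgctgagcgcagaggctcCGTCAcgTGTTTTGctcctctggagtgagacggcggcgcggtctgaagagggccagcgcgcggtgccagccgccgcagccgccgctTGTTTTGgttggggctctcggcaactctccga
Irs2: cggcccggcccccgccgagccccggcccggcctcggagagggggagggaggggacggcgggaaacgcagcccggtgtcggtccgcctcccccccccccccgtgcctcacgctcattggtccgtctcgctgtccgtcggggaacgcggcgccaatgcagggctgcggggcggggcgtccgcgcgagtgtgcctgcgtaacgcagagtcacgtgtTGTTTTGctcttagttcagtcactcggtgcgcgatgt
Akt1: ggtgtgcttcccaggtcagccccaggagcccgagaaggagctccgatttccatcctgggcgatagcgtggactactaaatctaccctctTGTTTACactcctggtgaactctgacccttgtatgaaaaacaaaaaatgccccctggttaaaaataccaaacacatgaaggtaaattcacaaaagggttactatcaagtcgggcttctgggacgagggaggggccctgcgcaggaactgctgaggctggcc
Akt2: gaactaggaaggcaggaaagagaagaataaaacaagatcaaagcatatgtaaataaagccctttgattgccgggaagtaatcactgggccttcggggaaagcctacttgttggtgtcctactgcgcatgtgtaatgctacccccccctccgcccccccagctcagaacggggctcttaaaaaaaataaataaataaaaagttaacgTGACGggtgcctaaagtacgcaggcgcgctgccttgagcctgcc

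The letters searched on both strands included the full cAMP response element, TGACGTCA. Its shorter core, contained in it, was searched as TGACG. The forkhead motif was searched as GTAAACA. The core of the insulin response element was searched as CAAAACA. RefSeq windows, which run from 250 bases before to 50 bases after a start, were matched for 9 of the 10 genes and gave 15 windows. Insr was not matched. None of the 15 windows held TGACGTCA, which 1.79% of the 32851 windows of all genes held. TGACG was found in 5 of the 15, among them Irs1 at -118 and Akt2 at -44 from the start, against 20.8% of all windows. GTAAACA was found in 1, at -161 of Akt1, against 3.65% of all windows. CAAAACA was found in 2, at -111 and -32 of Irs1 and at -37 of Irs2, against 6.28% of all windows. The bases shown hold 72.4% G and C in Irs1, 72.8% in Irs2, 52% in Akt1 and 48.8% in Akt2. Akt1 has a second window with 79.7%, and the 4 windows of Akt2 hold from 50% to 58.7%, each over 300 bases. A match is a description of these letters and not a measured site.

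Cold was the comparison in which these genes moved. In control mice 7 of the 10 passed the threshold (edgeR's quasi-likelihood test, Benjamini-Hochberg FDR below 0.05), while 65.0% of all genes tested did so (31.6% higher, 33.4% lower, and 67.9% at an unadjusted p below 0.05). In the mice labelled Afadin KO 7 of 10 passed, against 68.6% of all genes (33.7% higher, 34.9% lower, 70.9% unadjusted). Scaled by library size alone, which moved the median of all genes to -0.14 in control mice and -0.34 in mice labelled Afadin KO, 4 rose and 3 fell in control mice but 3 rose and 6 fell in mice labelled Afadin KO, where Akt1 no longer passed and Irs1, Pik3ca and Grb10 passed as lower. With upper-quartile factors the counts were 4 and 4, and 4 and 5. Of all genes, 60.2% and 67.1% passed with library size alone, and 65.5% and 69.8% with upper-quartile factors. In the main fit the share that passed was close to that of all genes. The median size of the change, without its sign, was 1.18 on the log2 scale for the 10 genes in control mice and 0.553 for all genes, and 1.01 against 0.553 in the mice labelled Afadin KO. The 10 genes were chosen with earlier results of these data known, so this difference is a description and was not tested. For 7 of the 10, the same 7 that passed, the values at 5 °C lay wholly outside those at 30 °C in both genotypes. Of all genes tested, whether they passed or not, this was so for 46.4% in control mice and 40.4% in mice labelled Afadin KO.

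Control mice also differed in nuclear-retained RNAs (Malat1, Neat1, Kcnq1ot1 and Meg3), of which 3 of 4 rose with cold and none was at 0. Their sum was 8951 to 10570 CPM at 30 °C and 14840 to 16270 at 5 °C, so that in control mice this difference and cold cannot be told apart. With their score as a covariate, 2 of the 10 genes passed in control mice, Akt2 and Tbc1d4, both lower, while 21% of all genes passed in the same fit. In the mice labelled Afadin KO the sums overlapped (10420 to 11780 and 10340 to 13580 CPM), and 8 of the 10 genes passed with the same covariate, the 7 above and Grb10, against 59.5% of all genes.

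**Figure D1:**
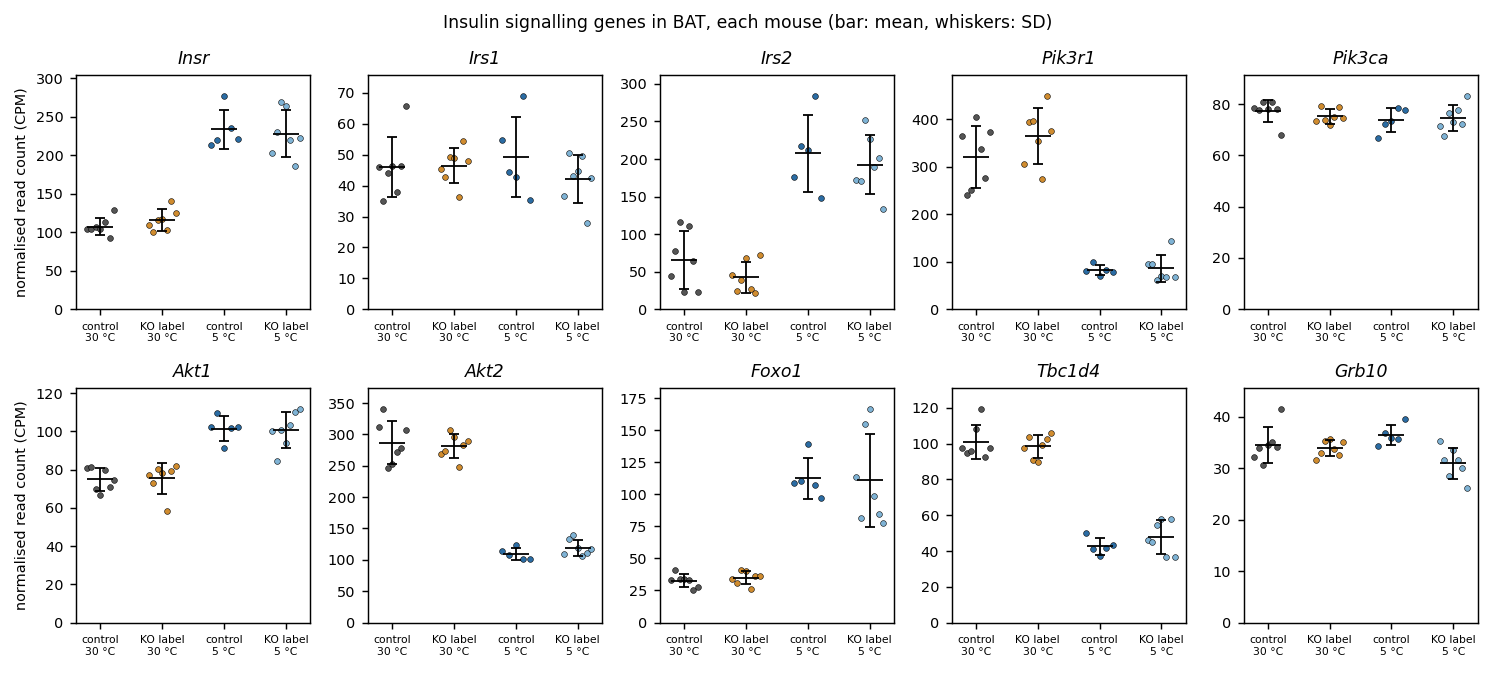
Normalised read counts (CPM, linear axis from 0) of the 10 genes in each mouse, by group, with the mean and the SD of each group. Insr, Irs2, Akt1 and Foxo1 stand higher at 5 °C in every mouse than in any mouse at 30 °C of the same genotype, Pik3r1, Akt2 and Tbc1d4 stand lower, and Irs1, Pik3ca and Grb10 overlap.

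Insr (ENSMUSG00000005534.10, chr8:3122061-3279617, minus strand) encodes the receptor. At 30 °C its level ran from 92.5 to 128 (median 104) CPM in control mice and from 99.8 to 141 (median 116) in mice labelled Afadin KO. At 5 °C the 5 control mice had 214, 219.7, 277, 236 and 222 CPM, and the 7 mice labelled Afadin KO ran from 186 to 269 (median 222). Every mouse at 5 °C was above every mouse at 30 °C. Insr rose 2.17-fold in control mice (log2 fold change 1.12, SE 0.095, adjusted p = 7.04e-11). It rose 1.97-fold in the mice labelled Afadin KO, or 0.98 (SE 0.088, adjusted p = 2.02e-10). The related IGF1 receptor, Igf1r, did not pass in control mice (-0.11, SE 0.11, adjusted p = 0.41), and per kb of exon Insr made up a median of 86.3% of both receptors at 30 °C and 93.7% at 5 °C in control mice.

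The docking proteins differed from each other. Irs1 (ENSMUSG00000055980.2, chr1:82233101-82291416, minus strand) ran from 35.2 to 65.8 (median 46.1) CPM in control mice at 30 °C and was 54.7, 44.4, 42.8, 69.1 and 35.5 in the 5 at 5 °C. In mice labelled Afadin KO it ran from 36.5 to 54.5 (median 48.0) at 30 °C and from 27.8 to 50.5 (median 43.0) at 5 °C. Cold and warm mice overlap in both genotypes. The annotation places Gm9747 on the other strand over 30.9% of the exon bases of Irs1, and it had 0 counts in every mouse. The overlaps of Irs2 (2.56%) and Foxo1 (7.78%) are smaller, with at most 5 counts of the other gene. The log2 fold change with cold was 0.10 (SE 0.15, adjusted p = 0.6) in control mice, with a 95% interval from -0.22 to 0.42, and -0.14 (SE 0.14, adjusted p = 0.38) in mice labelled Afadin KO.

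Irs2 (ENSMUSG00000038894.7, chr8:10984681-11008458, minus strand) was the most variable of the 10. At 30 °C the 7 control mice had 44.5, 77.3, 116, 23.1, 111, 64.0 and 23.4 CPM, a 5.01-fold range. The 7 mice labelled Afadin KO at 30 °C had 45.8, 23.7, 38.4, 68.6, 26.8, 21.4 and 71.8 CPM. Control mice kept at 5 °C for 6 h had 176, 217, 212, 284 and 149 CPM and the mice labelled Afadin KO ran from 134 to 252 (median 189.6). Despite the spread at 30 °C, the lowest mouse at 5 °C was above the highest at 30 °C. Irs2 rose 3.17-fold in control mice (log2 fold change 1.66, SE 0.34, adjusted p = 0.000133), and 4.54-fold, or 2.18 (SE 0.33, adjusted p = 1.68e-06), in mice labelled Afadin KO. Irs3, another docking protein, fell 18.5-fold in control mice, from between 18.9 and 31.7 CPM to between 0.73 and 2.42 (log2 fold change -4.21, SE 0.32, adjusted p = 1.15e-11). Per kb of exon, the median share of Irs3 among the 3 docking mRNAs went from 42.6% to 1.13% in control mice, and that of Irs2 from 41% to 84.6%.

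The subunits of PI 3-kinase differed as well. Pik3r1 (ENSMUSG00000041417.15, chr13:101680563-101768217, minus strand) encodes the regulatory subunit p85α. It ran from 240.2 to 405 (median 337) CPM in control mice at 30 °C and from 273 to 449 (median 374) in mice labelled Afadin KO. After cold, the control mice had 81.1, 99.2, 69.3, 81.9 and 79.3 CPM, and the mice labelled Afadin KO had 95.1, 94.3, 60.9, 70.8, 67.8, 143 and 68.6. All mice at 5 °C were below all mice at 30 °C. Pik3r1 fell 3.9-fold in control mice (log2 fold change -1.96, SE 0.18, adjusted p = 5.32e-10) and 4.24-fold in mice labelled Afadin KO (-2.08, SE 0.16, adjusted p = 1.37e-11), the lowest log2 fold changes of the 10. Pik3ca (ENSMUSG00000027665.13, chr3:32397671-32468486, plus strand), which encodes the catalytic subunit p110α, ran from 68.1 to 80.9 (median 78.3) CPM in control mice at 30 °C and was 67.0, 72.4, 73.3, 78.5 and 77.8 in those at 5 °C. Its log2 fold change was -0.070 (SE 0.054, adjusted p = 0.265) in control mice and -0.012 (SE 0.050, adjusted p = 0.835) in mice labelled Afadin KO. Without control mouse 7 at 30 °C, which was the lowest, it was -0.12 (adjusted p = 0.0412) in control mice.

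Of the kinases, Akt1 (ENSMUSG00000001729.14, chr12:112653821-112674884, minus strand) is widely expressed and Akt2 (ENSMUSG00000004056.15, chr7:27591552-27640826, plus strand) is the form most tied to glucose uptake in insulin-responsive tissues. Akt1 ran from 66.8 to 81.5 (median 74.7) CPM in control mice at 30 °C and from 58.1 to 81.8 (median 78.2) in mice labelled Afadin KO. At 5 °C the control mice had 102, 109, 91.4, 102 and 102 CPM and the mice labelled Afadin KO ran from 84.7 to 112 (median 100.5). The groups come close without overlap, with 84.7 CPM in the lowest mouse at 5 °C and 81.8 in the highest at 30 °C. Akt1 rose 1.35-fold in control mice (log2 fold change 0.44, SE 0.077, adjusted p = 1.91e-05) and 1.33-fold in mice labelled Afadin KO (0.42, SE 0.071, adjusted p = 1.07e-05). The rise in mice labelled Afadin KO rests on the scaling: with library size alone it was 0.11 (adjusted p = 0.346), where the median of all genes lay below 0 as given above.

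Akt2 went the other way. It ran from 246 to 340.2 (median 278) CPM in control mice at 30 °C and from 248 to 306 (median 283) in mice labelled Afadin KO. In the cold, the control mice had 115, 108, 124, 102 and 101 CPM and the mice labelled Afadin KO ran from 105 to 139 (median 118). The groups do not come near each other: the lowest mouse at 30 °C stood well above the highest at 5 °C. Akt2 fell 2.61-fold in control mice (log2 fold change -1.38, SE 0.086, adjusted p = 1.66e-13) and 2.35-fold in mice labelled Afadin KO (-1.23, SE 0.076, adjusted p = 1.13e-13).

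Foxo1 (ENSMUSG00000044167.6, chr3:52268336-52353221, plus strand) encodes the transcription factor that AKT restrains. It ran from 25.6 to 40.9 (median 33.3) CPM in control mice at 30 °C and from 26.2 to 41.1 (median 36.0) in mice labelled Afadin KO. Control mice kept at 5 °C for 6 h had 109, 110.0, 139, 107 and 97.0 CPM and the mice labelled Afadin KO had 113, 81.6, 155, 166, 98.8, 84.5 and 77.3. No mouse at 30 °C reached the lowest at 5 °C, while the 7 mice labelled Afadin KO differed widely among themselves in the cold. Foxo1 rose 3.45-fold in control mice (log2 fold change 1.79, SE 0.16, adjusted p = 3.44e-10) and 3.18-fold in mice labelled Afadin KO (1.67, SE 0.15, adjusted p = 3.22e-10). Foxo4 fell (-1.04, SE 0.10, adjusted p = 6.62e-10, in control mice), and per kb of exon the median share of Foxo1 among the 4 FoxO mRNAs went from 18.4% to 53.4% while that of Foxo4 went from 64.1% to 24.8%.

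Tbc1d4 (ENSMUSG00000033083.16, chr14:101442360-101609191, minus strand) encodes the AKT substrate that holds GLUT4 back. It ran from 92.3 to 119 (median 97.5) CPM in control mice at 30 °C and from 89.5 to 106 (median 99.5) in mice labelled Afadin KO. After cold, the control mice had 50.3, 41.0, 37.3, 41.5 and 43.1 CPM and the mice labelled Afadin KO ran from 36.4 to 58.1 (median 46.1). All mice at 5 °C lay below all mice at 30 °C. Tbc1d4 fell 2.36-fold in control mice (log2 fold change -1.24, SE 0.11, adjusted p = 1.13e-10) and 2.06-fold in mice labelled Afadin KO (-1.04, SE 0.10, adjusted p = 2.8e-10). Slc2a4, which encodes GLUT4 itself, fell too, with log2 fold changes of -1.02 in control mice (adjusted p = 6.47e-07) and -0.79 in mice labelled Afadin KO (adjusted p = 4.81e-06). The paralog Tbc1d1 rose (0.48, SE 0.10, adjusted p = 0.000178, in control mice).

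Grb10 (ENSMUSG00000020176.17, chr11:11930508-12038683, minus strand) did not pass the test for cold in either genotype in the main fit. It ran from 30.6 to 41.5 (median 34.0) CPM in control mice at 30 °C and from 31.6 to 35.7 (median 33.8) in mice labelled Afadin KO. At 5 °C the control mice had 34.3, 36.8, 35.8, 35.6 and 39.6 CPM and the mice labelled Afadin KO had 35.2, 31.6, 28.5, 33.5, 31.6, 30.0 and 26.2. The log2 fold change with cold was 0.076 (SE 0.069, adjusted p = 0.341) in control mice and -0.13 (SE 0.063, adjusted p = 0.073) in mice labelled Afadin KO. The second value passed in 7 of the 14 fits that left out 1 mouse, those without mouse 8, 9, 12, 13 or 14 at 30 °C or mouse 22 or 25 at 5 °C, with values from -0.17 to -0.09 and adjusted p from 0.0229 to 0.185 over the 14. It also passed with library size alone (-0.45, adjusted p = 0.000615) and upper-quartile factors (-0.29, adjusted p = 0.000275). It passed too with at least 10 counts in every mouse (-0.19), the nuclear-retained RNA covariate (-0.24), only the groups compared (-0.17), and without mice 7 and 27 (-0.15). With the remaining settings, among them RLE factors and DESeq2, it did not pass. Grb14, the related adaptor, fell in control mice (-1.95, SE 0.27, adjusted p = 6e-07), and per kb of exon Grb10 went from a median of 32.1% of the pair to 67.6%.

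**Figure D2:**
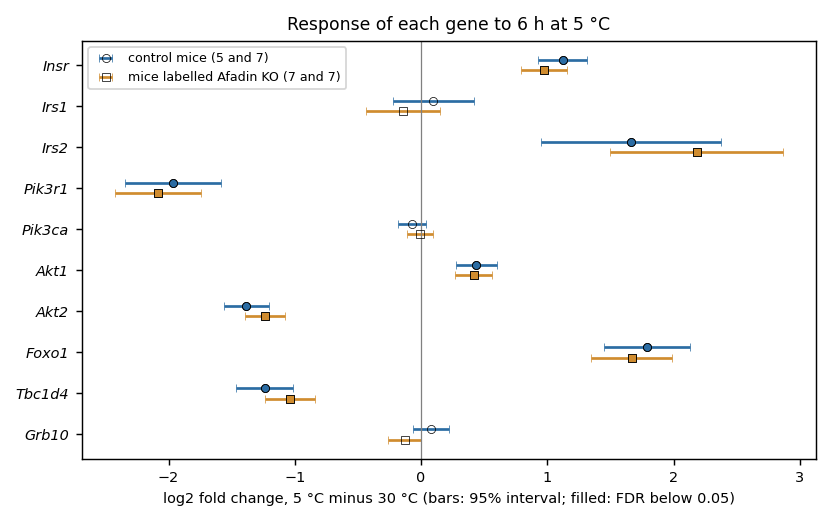
Log2 fold change from 30 to 5 °C of each gene in control mice (circles) and in mice labelled Afadin KO (squares), with 95% intervals, filled where the FDR was below 0.05. Insr, Irs2, Akt1 and Foxo1 lie to the right of 0 and Pik3r1, Akt2 and Tbc1d4 to the left in both genotypes, and the intervals of the 2 genotypes overlap for every gene.

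Levels of different genes were compared per kb of exon, from the mean of each group. In control mice at 30 °C the order was Akt2 (40.2 CPM per kb), Pik3r1 (31.8), Akt1 (18.3), Tbc1d4 (13.1), Irs2 (10.4), Pik3ca (8.53), Insr (7.81), Irs1 (5.04), Grb10 (3.80) and Foxo1 (3.76). Only Pik3r1 and Akt1, and Akt1 and Tbc1d4, were neighbours whose mice did not overlap. At 5 °C the order in control mice was Irs2 (32.8 CPM per kb), Akt1 (24.7), Insr (17.0), Akt2 (15.4), Foxo1 (13.0), Pik3r1 (8.15), Pik3ca (8.12), Tbc1d4 (5.56), Irs1 (5.39) and Grb10 (4.01). Here the neighbours that did not overlap were Akt1 and Insr, Foxo1 and Pik3r1, and Pik3ca and Tbc1d4. The mice labelled Afadin KO had the same first 4 at 30 °C, and Irs2 and Akt1 led at 5 °C (30.4 and 24.5 CPM per kb).

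Within each mouse, the ratio of Akt2 to Akt1 per kb was 1.96 to 2.40 in control mice at 30 °C and 0.564 to 0.781 after cold. Among mice labelled Afadin KO it was 2.01 to 2.46 and 0.579 to 0.906. All 14 mice at 30 °C thus had more Akt2 than Akt1 mRNA, and all 12 at 5 °C had less. The ratio of Irs2 to Irs1 was 0.513 to 4.21 in control mice at 30 °C and 4.64 to 7.17 at 5 °C, and 0.568 to 2.16 and 4.56 to 10.5 in mice labelled Afadin KO. The ratio of Pik3r1 to Pik3ca was 2.78 to 4.92 and 0.853 to 1.24 in control mice, and 3.28 to 5.12 and 0.717 to 1.79 in mice labelled Afadin KO. These ratios do not depend on the scaling of the libraries, but they do depend on the exon lengths used.

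**Figure D3:**
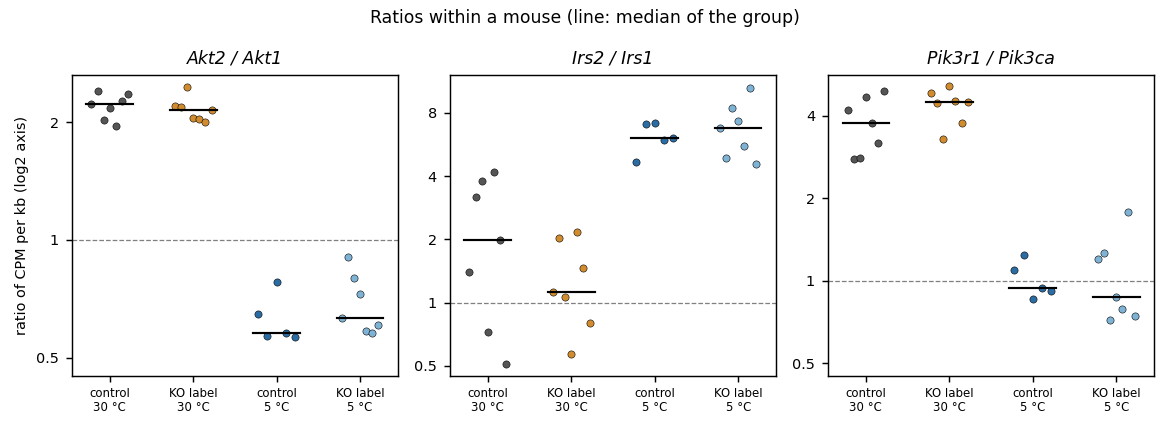
Ratio of CPM per kb between pairs of genes in each mouse (log2 axis), by group, with the median as a line and a ratio of 1 dashed. Akt2 over Akt1 is above 1 in every mouse at 30 °C and below 1 in every mouse at 5 °C, Irs2 over Irs1 is at least 4.56 in every mouse at 5 °C, and Pik3r1 over Pik3ca falls to between 0.717 and 1.79.

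The genes also differed in how much mice of 1 group varied. The SD of log2 CPM within groups was 0.663 for Irs2, higher than for 96.7% of the 14246 genes with a mean of at least 1 CPM. It was 0.0826 for Pik3ca, higher than for 2.2% of them, and 0.114 for Grb10 (11.9%). The other 7 genes lay between, from 0.135 for Akt1 (21.6%) to 0.311 for Pik3r1 (72%). The genes compared were not matched by level, so the part of level in these shares was not tested.

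The deviations of Irs2 from its group means were most like those of Nr4a1, an orphan nuclear receptor (Pearson r = 0.956, Spearman rho = 0.958 over 26 mice), Sik1, a salt-inducible kinase (r = 0.911, rho = 0.919), and Btg2 (r = 0.895, rho = 0.889). These were the highest of all the genes compared, so that no test is given, and the points share the libraries. Without the 2 mice farthest from the median of each gene, r was 0.936, 0.876 and 0.857. Within single groups r differed, in the order control and Afadin KO label at 30 °C, then the same at 5 °C. It was 0.99, 0.968, 0.799 and 0.82 for Nr4a1, 0.963, 0.82, 0.975 and 0.993 for Sik1, and 0.97, 0.971, 0.639 and 0.608 for Btg2. In control mice at 30 °C Nr4a1 ran from 17.5 to 152 CPM, and the 2 mice with the lowest Nr4a1 also had the lowest Irs2. With cold, the log2 fold change of Nr4a1 was -0.96 in control mice (edgeR, adjusted p = 0.0862) and that of Sik1 was 1.16 (adjusted p = 0.00175), while Btg2 fell by 1.59 (adjusted p = 0.00219). In mice labelled Afadin KO the log2 fold changes were -0.817 for Nr4a1 (adjusted p = 0.0999), 1.816 for Sik1 (adjusted p = 4.65e-06) and -0.595 for Btg2 (adjusted p = 0.165, by the same test).

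**Figure D4:**
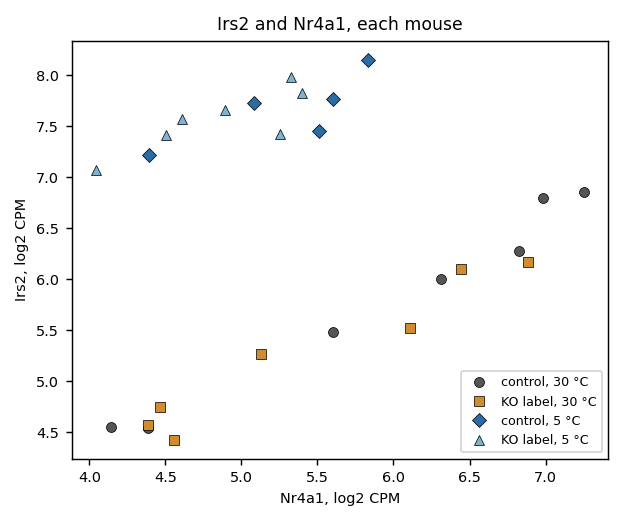
Irs2 against Nr4a1 in each mouse (log2 CPM on both axes), by group. Within each group the mice with more Nr4a1 tend to have more Irs2, and the mice at 5 °C form a separate band with higher Irs2 at the same Nr4a1.

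For the other genes the closest were Gaa for Insr (r = 0.846), Cxcl13 and Pi16 for Irs1 (both 0.804), Pcolce2 for Pik3r1 (0.751), Crebrf for Pik3ca (0.812), Ptms for Akt1 (0.77), Prelid3b for Akt2 (0.836), Pdk2 for Foxo1 (0.855), Ghr for Tbc1d4 (0.838) and Fbxw17 for Grb10 (0.749), each over 26 mice. Without the 2 mice farthest from the median, r was 0.826 for Gaa, 0.683 for Cxcl13, 0.728 for Pi16, 0.604 for Pcolce2, 0.69 for Crebrf, 0.666 for Ptms, 0.806 for Prelid3b, 0.786 for Pdk2, 0.768 for Ghr and 0.537 for Fbxw17.

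The label was compared within each temperature. At 30 °C, 0 of the 10 genes passed (edgeR, 0 at an unadjusted p below 0.05, 0 with DESeq2), while 0.0810% of all genes did (0.0579% higher, 0.0231% lower) and 7.65% had an unadjusted p below 0.05. None of the 10 had groups without overlap, which 0.249% of all genes had. The difference of Irs2 was -0.63 (SE 0.32, adjusted p = 0.663), with a 95% interval from -1.29 to 0.032. The intervals of the other 9 were narrower, and the widest of them, that of Pik3r1, ran from -0.14 to 0.51. Without control mouse 7 at 30 °C, 93 genes passed in place of 14, and 0 of the 10 were among them.

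At 5 °C, 0 of the 10 passed (edgeR, 1 at an unadjusted p below 0.05, 0 with DESeq2), against 0.139% of all genes (0.0463% higher, 0.0926% lower) and 13.4% unadjusted. The 1 was Grb10, with 34.3 to 39.6 CPM in the 5 control mice and 26.2 to 35.2 in the 7 mice labelled Afadin KO. The highest mouse of the latter lies within the range of the former, and the other 6 lie below it. None of the 10 had groups without overlap, against 1.11% of all genes. Its log2 fold change was -0.23 (SE 0.069, unadjusted p = 0.0022, adjusted p = 0.141 by edgeR). The differences of Tbc1d4 (0.17, SE 0.10, adjusted p = 0.503) and Irs1 (-0.23, SE 0.15, adjusted p = 0.542) were next in their unadjusted p or size. Those of Akt1, Pik3ca, Foxo1 and Insr were within 0.04 of 0. At this temperature the summed nuclear-retained RNAs also differed without overlap between control mice and mice labelled Afadin KO, in the ranges given above, and the 5 red blood cell markers had higher values in the latter (517 to 1497 against 417 to 684 CPM in sum, 0 of 5 passed by edgeR, 5 unadjusted), and neither can be told apart from the label.

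Whether cold acted differently in the genotypes was tested by an interaction contrast, and 0 of the 10 passed (edgeR, 1 at an unadjusted p below 0.05, 0 with DESeq2), against 1.16% of all genes and 16.2% unadjusted. The 1 was again Grb10, at -0.21 (SE 0.094, unadjusted p = 0.0374, adjusted p = 0.278 by edgeR). The interval of the difference was -0.24 to 0.20 for Akt1, -0.081 to 0.38 for Akt2, -0.41 to 0.12 for Insr and -0.093 to 0.49 for Tbc1d4. It was wider for Foxo1 (-0.58 to 0.34) and Pik3r1 (-0.60 to 0.36), and for Irs2 the difference was 0.52 (SE 0.47), so that differences of such sizes were not detectable with these mice.

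The rest of the pathway was followed in 10 lists with 116 further genes, of which 113 were tested. Irs4, Socs1 and Igfbp2 had too few counts (at most 1, 16 and 1 in any mouse). With cold, 46 of the 113 rose and 43 fell in control mice, and 51 rose and 42 fell in mice labelled Afadin KO. These are 40.7% higher and 38.1% lower in control mice, against 31.6% and 33.4% of all genes tested, and 45.1% and 37.2% in mice labelled Afadin KO, against 33.7% and 34.9%, and the counts of the single lists below are to be read beside these shares of all genes. The lists, too, were chosen with earlier results of these data known, so their differences from all genes are a description and were not tested. With the nuclear-retained RNA covariate 13 rose and 21 fell in control mice, and 46 and 38 in mice labelled Afadin KO. Of all genes, 21% passed in control mice in that fit, in place of 65%, and 59.5% in mice labelled Afadin KO. In control mice calls were thus lost across all genes, and not in these lists alone. The split depends on the scaling: with library size alone 35 rose and 47 fell in control mice, and 29 and 53 in mice labelled Afadin KO, and with upper-quartile factors 39 and 49, and 41 and 50. The shares of all genes that passed were 60.2% and 67.1% with library size alone, and 65.5% and 69.8% with upper-quartile factors. As with the 10 genes, each level of the pathway held members that rose beside members that fell. In what follows, a single value in parentheses is a log2 fold change with cold in control mice past the threshold (edgeR, FDR below 0.05).

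**Figure D5:**
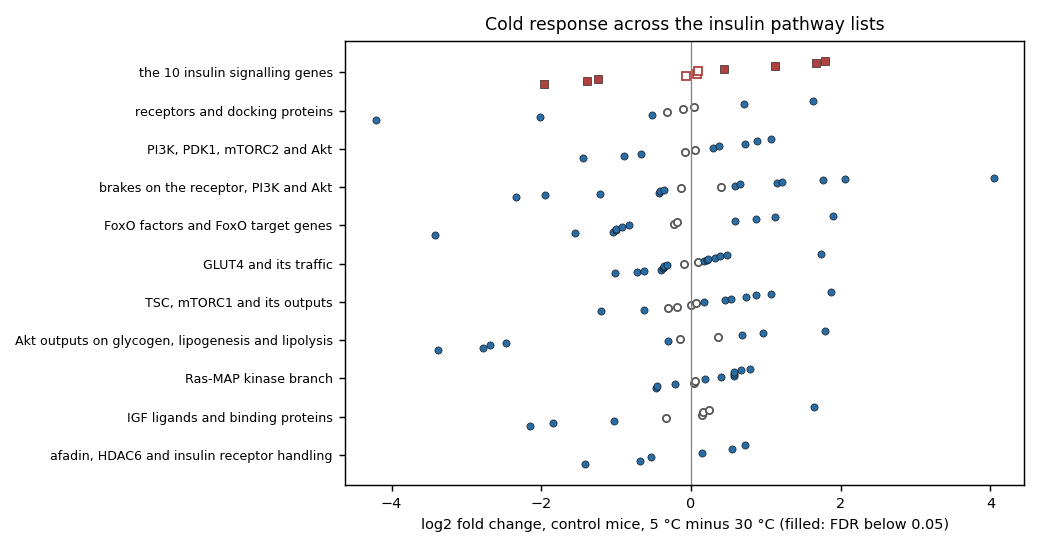
Log2 fold change with cold in control mice of the 10 genes (squares) and of the 113 tested genes of the other lists (circles), filled where the FDR was below 0.05. Every list holds genes on both sides of 0, from Irs3 at -4.21 to Socs2 at 4.04.

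Among receptors and docking proteins, 2 of 8 rose and 3 fell in control mice, and 3 rose and 2 fell in mice labelled Afadin KO. Gab2, a docking protein, rose (1.63) together with the adaptor Sh2b1 (0.71). Irs3, Gab1 (-2.02) and Dok1 (-0.52) fell. Gab2 and Gab1, which are paralogs, moved apart as Irs2 and Irs3 did.

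Of the 10 further genes of PI 3-kinase, PDK1, mTORC2 and Akt, 5 rose and 3 fell in control mice, and 5 rose and 4 fell in mice labelled Afadin KO. Pdpk1, the kinase that activates AKT, went from between 83.3 and 99.3 CPM to between 177 and 212 (log2 fold change 1.06, SE 0.054, adjusted p = 4.33e-15). Mtor rose (0.88), as did Mlst8 (0.73), and both encode parts of the mTOR complexes. The genes that fell were all PI 3-kinase subunits: Pik3r2 (-1.44), Pik3cd (-0.89) and Pik3cb (-0.67). Per kb of exon, the sum of the 3 regulatory subunits ran from 29.8 to 46.5 CPM in control mice at 30 °C and from 10.6 to 13.1 at 5 °C, and that of the 3 catalytic subunits from 12.3 to 13.6 and from 9.92 to 11.6.

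Of the 15 brakes on the receptor, PI 3-kinase and Akt, 7 rose and 6 fell in control mice, and 7 rose and 7 fell in mice labelled Afadin KO. Socs2, a suppressor of cytokine signalling, went from between 4.68 and 11.1 CPM to between 112 and 121 (log2 fold change 4.04, SE 0.19, adjusted p = 1.13e-15). Socs3, which binds the receptor and IRS proteins, rose (2.06), as did Trib3 (1.77), a pseudokinase that binds AKT. Pik3ip1, an inhibitor of PI 3-kinase (-2.33), Grb14 and the lipid phosphatase Inpp4b (-1.22) fell.

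Of the 13 FoxO factors and targets, 4 rose and 7 fell in control mice, and 4 rose and 6 fell in mice labelled Afadin KO. Pdk4, which curbs pyruvate oxidation (1.89), Klf15 (1.12) and Ccng2 (0.87) rose, while Sesn3 (-1.55) and Foxo4 fell. Foxo6 fell from between 3 and 23 counts per mouse to at most 2.

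Of the 17 genes of GLUT4 and its traffic, 7 rose and 8 fell in control mice, and 5 rose and 6 fell in mice labelled Afadin KO. The highest were Cblb (1.73), Tbc1d1 and Rab10 (0.39), all higher at 5 °C. Slc2a4 and Rhoq (-0.62) were among those that fell.

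Of the 13 genes of TSC and mTORC1, 7 rose and 2 fell in control mice, and 7 rose and 3 fell in mice labelled Afadin KO. Sesn2 (1.87) and Ddit4 (1.07), both of which restrain mTORC1, rose beside Rheb (0.87), which activates it. Eif4ebp1 (-1.21) and Eif4ebp2 (-0.63), which hold translation back, fell.

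Of the 10 outputs on glycogen and lipid, 3 rose and 5 fell in control mice, and 4 rose and 5 fell in mice labelled Afadin KO. Gys2, a glycogen synthase (1.79), Gsk3a (0.96) and Pde3b, through which insulin restrains lipolysis (0.67), rose. Srebf1, the regulator of lipid synthesis, fell 10.4-fold, from between 261 and 956 CPM to between 34.0 and 52.1. The lipogenic enzymes Acly (-2.78) and Fasn (-2.69) fell as well.

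Of the 12 genes of the Ras-MAP kinase branch, 7 rose and 3 fell in control mice, and 8 rose and 3 fell in mice labelled Afadin KO. Sos1, an exchange factor for Ras, rose (0.67), and Map2k1 (-0.46), Mapk3 (-0.45) and Sos2 (-0.21) fell.

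Of the 8 IGF ligands and binding proteins, Igfbp3 rose (1.65), and Igfbp5 (-2.15), Igf1 (-1.85) and Igf2r (-1.03) fell in control mice, and 4 rose and 3 fell in mice labelled Afadin KO. Igf1 went from between 37.6 and 80.9 CPM to between 8.87 and 21.2. Of the 7 genes of Afadin, HDAC6 and receptor handling, Cav1 (0.71), Hdac6 (0.55) and Ide (0.15) rose, and Afdn (-1.42), Mad2l1bp (-0.69) and Nedd4 (-0.53) fell in control mice, and 4 rose and 3 fell in mice labelled Afadin KO.

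For the label, 0 of the 113 passed at 30 °C (edgeR, 7 at an unadjusted p below 0.05, 0 with DESeq2). The share of all genes there was 0.0810% by edgeR (7.65% unadjusted) and 0.329% by DESeq2. At 5 °C 0 passed (edgeR, 12 unadjusted), and DESeq2 called 2, Afdn at -0.32 (adjusted p = 0.0478) and Braf at -0.17 (adjusted p = 0.0453). The share of all genes at 5 °C was 0.139% by edgeR (13.4% unadjusted) and 1.52% by DESeq2. In the interaction Braf, a kinase of the Ras branch, passed at -0.28 (SE 0.070, adjusted p = 0.0423) by edgeR, the only 1 of the 113. It did not pass in 18 of the 26 fits that left out 1 mouse (adjusted p from 0.0322 to 0.0855). DESeq2 called 2 in the interaction, Braf at -0.27 (adjusted p = 0.0105) and Acaca, an enzyme of fatty acid synthesis, at 0.93 (adjusted p = 0.043). These counts are to be read beside the share of all genes in the interaction, 1.16% by edgeR and 3.27% by DESeq2. Braf rose in both genotypes, by 0.57 in control mice and 0.29 in mice labelled Afadin KO. Braf and Acaca were named after their values were seen.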

How the data were processed

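Ribosome-depleted total RNA of each BAT depot was sequenced as stranded single-end reads. The authors aligned them with STAR (2.5.2b) to mm10 and deposited raw counts per gene, made with featureCounts (1.5.2) on GENCODE M13. The strand setting of the counting is not given in the sources used here. Counts were fitted here with edgeR (4.0.16, R 4.3.3) as 4 groups of 26 mice, with TMM factors, genes kept by filterByExpr, quasi-likelihood tests in the legacy mode and Benjamini-Hochberg adjustment over all genes tested. Replicates were separate mice. Exon lengths and coordinates came from GENCODE M21 on GRCm38, promoters from RefSeq. No value column was left unmapped. The fit was tested on simulated data. DESeq2 (1.42.0), other scalings and filters, marker scores as covariates, and fits without 1 mouse served as alternatives. Another, without control mouse 7 at 30 °C and mouse 27, labelled Afadin KO, at 5 °C, was chosen after seeing the data.

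The 10 genes, the pathway lists and the marker lists were chosen with earlier results of these data known. Named pathway genes were up to 3 per list that rose and up to 3 that fell furthest among those past the threshold in control mice, plus preset landmarks of the pathway and the close paralogs of the 10 genes. The most similar genes were the 3 with the highest Pearson correlation of log2 CPM (prior count 2), taken after subtracting group means, among genes with a mean of at least 1 CPM. Some genes that this rule names are not reported here.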

Additional observations from a re-analysis of the deposited data

Results flagged for a closer look

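Of the 40 sets formed by 10 genes in 4 groups, 5 held a mouse that stood apart from the rest of its group by Dixon's test, where chance flags about 1 in 20. Control mouse 7 at 30 °C was highest in Irs1 (65.8 CPM) and Grb10 (41.5 CPM) and lowest in Pik3ca (68.1 CPM). The same mouse had 5828 CPM of summed skeletal muscle markers, the highest of its group, and the lowest sums of brown adipocyte (1728 CPM) and endothelial markers (478 CPM). Its sums of fibroblast and preadipocyte markers (2847 CPM) and red blood cell markers (1120 CPM) were the highest of the group, where the other mice reached at most 1644 and 486 CPM. Mouse 12, labelled Afadin KO at 30 °C, was lowest in Akt1 (58.1 CPM). Mouse 27, labelled Afadin KO at 5 °C, was highest in Pik3r1 (143 CPM) and also had the highest sum of neutrophil markers (55.2 CPM). Without mice 7 and 27 together, 8 of the 10 genes passed for cold in each genotype, and 0 passed for the label at either temperature or for the interaction (edgeR). In that fit 66.9% of all genes passed for cold in control mice and 69.4% in mice labelled Afadin KO. For the label the share was 0.695% at 30 °C and 0.146% at 5 °C, and for the interaction 2.12%.

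Among the other pathway genes, the cold response of Braf differed between the genotypes by -0.28 on the log2 scale (edgeR, adjusted p = 0.0423). In the same fit 1.16% of all genes passed. Braf ran from 46.0 to 53.3 CPM in control mice and from 50.6 to 56.5 in mice labelled Afadin KO at 30 °C, and from 70.9 to 78.3 and from 61.9 to 71.4 at 5 °C. The difference did not pass with RLE factors, without the filter on low counts or with the nuclear-retained RNA covariate. Of the 26 fits that left out 1 mouse, 18 lost it, with values from -0.31 to -0.27 and adjusted p from 0.0322 to 0.0855. It passed only in those without control mouse 5 or 7, or without mouse 9, 14, 22, 24, 25 or 27 of those labelled Afadin KO.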

How the results depend on the processing

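No paired analysis was possible because the groups share no replicate numbers. The counts of the 10 genes past the threshold kept within 1.5 times under every alternative except 1: for cold in control mice, with the nuclear-retained RNA covariate, 2 were called in place of 7. Lost there were Insr at 0.48 (adjusted p = 0.284), Irs2 at 0.68 (0.744), Akt1 at 0.73 (0.0557), Pik3r1 at -1.59 (0.058) and Foxo1 at 0.66 (0.41), by the same edgeR test. The cause was not tested. Without 1 mouse, 7 to 8 were called for cold in either genotype and 0 for the label or the interaction. The share of all genes called for cold in those fits was 62% to 65.7% in control mice and 66.9% to 68.9% in mice labelled Afadin KO. For the label it was 0.0405% to 0.541% at 30 °C and 0.0399% to 0.579% at 5 °C, and for the interaction 0.284% to 2.16%. Of 780 values without 1 mouse, 739 kept direction and side of the threshold, 8 passed newly, and 33 changed sign. Of 590 values under other settings, 529 kept both, 11 passed newly, 6 no longer passed, and 44 changed sign. No value that changed sign passed in either fit. Values that changed sign (log2) follow. With library size alone the values were Irs1 -0.047 and Grb10 -0.059 for cold in control mice, Akt2 0.11, Pik3ca 0.11, Tbc1d4 0.12 and Grb10 0.10 for the label at 30 °C, Pik3ca -0.033 for the label at 5 °C, Akt2 -0.037, Pik3ca -0.15 and Tbc1d4 -0.022 for the interaction. With upper-quartile factors the values were Irs1 -0.010 and Grb10 -0.030 for cold in control mice, Akt2 0.0012 and Grb10 0.0003 for the label at 30 °C, Pik3ca -0.005 for the label at 5 °C. With the nuclear-retained RNA covariate the values were Irs1 -0.51, Pik3ca 0.11 and Grb10 -0.37 for cold in control mice, Pik3ca 0.033 for cold in mice labelled Afadin KO, Insr -0.090, Irs1 -0.18, Pik3ca 0.014 and Foxo1 -0.27 for the label at 30 °C, Insr 0.23, Irs1 0.029, Irs2 0.30, Pik3r1 -0.10, Pik3ca -0.060 and Foxo1 0.43 for the label at 5 °C, Insr 0.32, Irs1 0.21, Pik3ca -0.074, Foxo1 0.70 and Grb10 0.12 for the interaction. With RLE factors the values were Pik3ca 0.0036 for cold in mice labelled Afadin KO, Akt1 0.0033 for the label at 5 °C. With DESeq2 the values were Pik3ca 0.0032 for cold in mice labelled Afadin KO, Akt1 0.0039 for the label at 5 °C. Without the filter the values were Akt1 0.0009 for the label at 5 °C. Without control mouse 7 and mouse 27 labelled Afadin KO the values were Akt2 0.005 and Grb10 0.037 for the label at 30 °C, Insr 0.017, Pik3r1 -0.097 and Foxo1 0.043 for the label at 5 °C. Without 1 mouse the ranges of values that changed sign were Irs1 -0.056 to 0.19 for cold in control mice, Pik3ca -0.047 to 0.0022 for cold in mice labelled Afadin KO, Irs1 -0.044 to 0.13, Akt2 -0.063 to 0.016, Akt1 -0.016 to 0.075, Tbc1d4 -0.052 to 0.012 and Grb10 -0.056 to 0.038 for the label at 30 °C, Pik3ca -0.017 to 0.039, Akt1 -0.047 to 0.024, Insr -0.080 to 0.033, Foxo1 -0.15 to 0.068, Irs2 -0.21 to 0.030 and Pik3r1 -0.11 to 0.14 for the label at 5 °C, Akt1 -0.074 to 0.018 for the interaction. Each of the 10 genes had between 381 and 8687 reads in every mouse.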
